A study of Mus musculus with 6 samples.

Results

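The genes described here are the collagens, the ADAMTS and ADAMTS-like genes, the matrix metalloproteinases (MMPs) and a named set of matrix proteoglycans, glycoproteins and tissue inhibitors of metalloproteinases (TIMPs) in mouse tongue epithelium. They were taken by gene name. Every collagen chain gene entered except Col17a1, every gene whose name starts with Adamts, every Mmp gene with a number, and Dcn, Lum, Bgn, Fmod, Ogn, Prelp, Sparc, Fn1, Postn, Timp1, Timp2 and Timp3. That gave 100 of the 55421 genes in the deposited table, of which 43 are collagens, 24 are ADAMTS or ADAMTS-like genes, 21 are MMPs and 12 are the genes listed by name. The set was chosen by the KO against WT values of Dcn and Adamtsl1 in these libraries, so those 2 genes are described with no test. The other genes entered by name, whatever their values.

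In the 3 KO mice both alleles of Ire1α (Ern1) were floxed and the mice also carried K14CreERT2, a tamoxifen-inducible Cre driven by the promoter of keratin 14, a basal keratinocyte gene. The 3 WT mice were littermates with the floxed alleles and no Cre, so floxed Ern1 is shared by all 6 animals. Every mouse, WT included, received tamoxifen daily for 4 days and was harvested on day 5, and the labels give no age. The mucosa was peeled from the tongue after 10 minutes at 37 °C in a mixture of neutral protease and collagenase, each at 1 mg/mL, and 1 library of 3'-end tags was made per mouse.

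The extracellular matrix of a lining tissue has a sheet-like part, the basement membrane under the basal keratinocytes, and a fibrous part in the connective tissue below it. Type IV collagen networks and laminins build the sheet, and fibrillar collagens, coated by small leucine-rich proteoglycans such as decorin, build the fibres. Fibroblasts make most of the fibrous part, while keratinocytes contribute to the basement membrane. MMPs and ADAMTS proteases cut these proteins, and TIMPs block MMPs.

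Libraries held 5202101 to 6286153 reads in KO and 4606309 to 5911884 in WT. The 100 genes together took 2808 to 3999 reads per library in KO and 3404 to 4368 in WT, so most of them were measured on few reads. In all, 89 of the 100 had a read in at least 1 library and 11 were at 0 in all 6. The filter on low values (a normalised count of at least 10 in at least 3 libraries) was passed by 26. Values below are normalised counts, which in a 3'-tag library are not divided by transcript length. Fold changes are differences of log2(normalised count + 1), KO minus WT, with the standard error (SE) of limma's fit over 10987 genes. A gene was called at a Benjamini-Hochberg adjusted p under 0.05 over all of them, and the smallest p an exact permutation test of 3 mice against 3 can give is 0.1.

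Ern1, the targeted gene, had 78.0, 117 and 123 in KO replicates 1 to 3 and 102, 104.7 and 77.1 in WT replicates 1 to 3. These tags come from the 3′ end of the transcript and the labels do not give the deleted exons, so the level does not check the genotype labels. The tissue label held in its markers. The 6 suprabasal keratinocyte markers summed to 677869 to 972652 in KO and 557396 to 773064 in WT, and the 7 basal markers to 36389 to 63175 in KO and 25654 to 27832 in WT. The basal markers did not move one way: limma called 1 of 7 higher (Itgb4, an integrin gene) and 0 lower, DESeq2 called 4 higher and 1 lower, and 6 had an unadjusted limma p under 0.05, against 13.5% of all tested genes. Krt14, Krt5 and Itga6 had log2 fold changes of 1.12, 1.04 and 0.87, and Krt15 and Trp63 of -1.25 and -0.58, and none of these 5 passed with limma (adjusted p from 0.0694 to 0.170). KO replicate 1 stood apart. The 10 skeletal muscle markers summed to 2073, 108 and 416 in KO replicates 1 to 3 and to 130.1, 306 and 199.8 in WT replicates 1 to 3. The 16 fibroblast markers, none of which is among the 100 genes, summed to 2284, 1305 and 1325 in KO and to 1824, 1996 and 1511 in WT. Most of that sum was Gsn and Vim. The remaining 14 markers, a subset formed after the values were seen, summed to 95.3, 8.62 and 16.2 in KO and to 19.8, 32.3 and 19.6 in WT. Dpt and Dpep1 were at 0 in every library, and the fibroblast receptor gene Pdgfra did not exceed 6.50 in any. The muscle markers Acta1 and Tnnc2 were also at 0 in every library, although the muscle marker Myh4 had 922 in KO replicate 1. A listed 0 may therefore not mean that the RNA was absent. In bulk tissue fewer cells of a type and less RNA per cell cannot be told apart.

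Among the genes that passed the filter, the type IV collagen genes Col4a5 and Col4a6 had the lowest log2 fold changes after Dcn and Adamtsl1. Limma called Col4a6 and not Col4a5. Their promoters are shown, and the genes lie head to head on the X chromosome. Col4a1 and Col4a2 on chromosome 8 also lie head to head, as do Col4a3 and Col4a4 on chromosome 1. The layout is therefore not particular to Col4a5 and Col4a6, and a link to their values was not tested. In GENCODE M21 on GRCm38, Col4a6 (ENSMUSG00000031273) spans X, 141165403 to 141474076 on the minus strand, and Col4a5 (ENSMUSG00000031274) spans X, 141475385 to 141689234 on the plus strand. The RefSeq start sites on GRCm38.p6 are 1343 bases apart and point away from each other. Each sequence runs from 250 bases before the start site to 50 after it, read 5′ to 3′ on the gene's own strand, at chrX:141474027-141474326 for Col4a6 and chrX:141475169-141475468 for Col4a5. Capitals mark the match to GGGCGG on either strand.
Col4a6: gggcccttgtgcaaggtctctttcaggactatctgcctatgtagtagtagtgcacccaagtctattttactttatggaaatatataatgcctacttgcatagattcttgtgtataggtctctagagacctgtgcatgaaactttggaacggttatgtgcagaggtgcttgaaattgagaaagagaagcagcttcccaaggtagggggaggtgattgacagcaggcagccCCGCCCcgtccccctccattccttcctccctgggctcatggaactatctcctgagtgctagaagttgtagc
Col4a5: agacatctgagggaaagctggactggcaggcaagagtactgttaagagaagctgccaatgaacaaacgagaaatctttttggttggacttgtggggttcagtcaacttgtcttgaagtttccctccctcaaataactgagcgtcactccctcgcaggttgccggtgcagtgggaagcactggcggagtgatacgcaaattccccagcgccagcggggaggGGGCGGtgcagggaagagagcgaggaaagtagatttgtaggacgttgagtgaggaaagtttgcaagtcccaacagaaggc
Each window holds 1 GGGCGG match, and 35.7% of the 32851 RefSeq promoter windows of the same length hold at least 1. Of the other motifs searched on both strands, CCAAT was present once in the Col4a5 window and is held by 37.4% of all windows. The letters TATAAA (13.6% of windows) and TGACGTG (2.01%) are in neither window. No 2 of these motifs overlap in either window. Of the 100 genes, 73 have a window in that table. Dcn and Adamtsl1 are not among them.

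Col4a6, which encodes a chain of the type IV collagen found in the basement membrane under stratified epithelium, fell in KO. It had 26.0, 14.7 and 20.0 in KO replicates 1 to 3, against 46.2, 90.8 and 57.5 in WT replicates 1 to 3. All KO libraries lay below all WT libraries. The means were 20.2 ± 5.68 in KO and 64.8 ± 23.2 in WT (SD, n = 3 each), a log2 fold change of -1.61 ± 0.33 (SE, limma adjusted p = 0.0368). The call rested on single libraries: of the 6 fits that leave out 1 library, it passed only in the one without WT replicate 1 (limma adjusted p = 0.0335) and had 0.0593 to 0.150 in the others, with fold changes of -1.82 to -1.34. It passed with edgeR (adjusted p = 0.0371) and DESeq2 (adjusted p = 0.00224), and lost the call with the style of the library name, digits or a letter, as a covariate (limma adjusted p = 0.104).

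Col4a5, the neighbouring gene and the partner chain of the same network, had 28.2, 31.0 and 13.3 in KO replicates 1 to 3, against 80.1, 88.1 and 41.8 in WT replicates 1 to 3. Its groups did not overlap either, and the gap lay between KO replicate 2 and WT replicate 3. The means were 24.2 ± 9.49 in KO and 70.0 ± 24.8 in WT (SD, n = 3 each), a log2 fold change of -1.51 ± 0.38 (SE), which missed the threshold (limma adjusted p = 0.0883). It passed with DESeq2 (adjusted p = 0.00933), not with edgeR (adjusted p = 0.0759), and with limma when WT replicate 3 was left out (limma adjusted p = 0.0438). Both genes are X-linked, and the Y-linked gene Ddx3y was 2.86 in KO replicate 3 and 0.873 in WT replicate 2, against 227 to 279.9 in the other 4 libraries, so each group held 1 library of that kind. Among the 4 libraries with Ddx3y, Col4a6 was 26.0 and 14.7 in KO and 46.2 and 57.5 in WT.

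The other type IV genes were near the detection limit. Col4a1 and Col4a2, which encode the chains of the type IV collagen common to all basement membranes, reached at most 3.45 and 13.0, and Col4a3 and Col4a4 at most 2.62 and 5.24. Where no read was found, up to 3 reads remain possible from counting error alone, which is 2.59 to 3.92 normalised counts depending on the library. For Col4a1, Col4a3 and Col4a4, with values of at most 5.24, a difference was not detectable at this depth. Col4a2 had 13.0, 1.72 and 0.953 in KO replicates 1 to 3 and 0, 5.24 and 5.22 in WT replicates 1 to 3, so KO replicate 1 was alone above the WT range, and the gene was not tested.

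**Figure D1:**
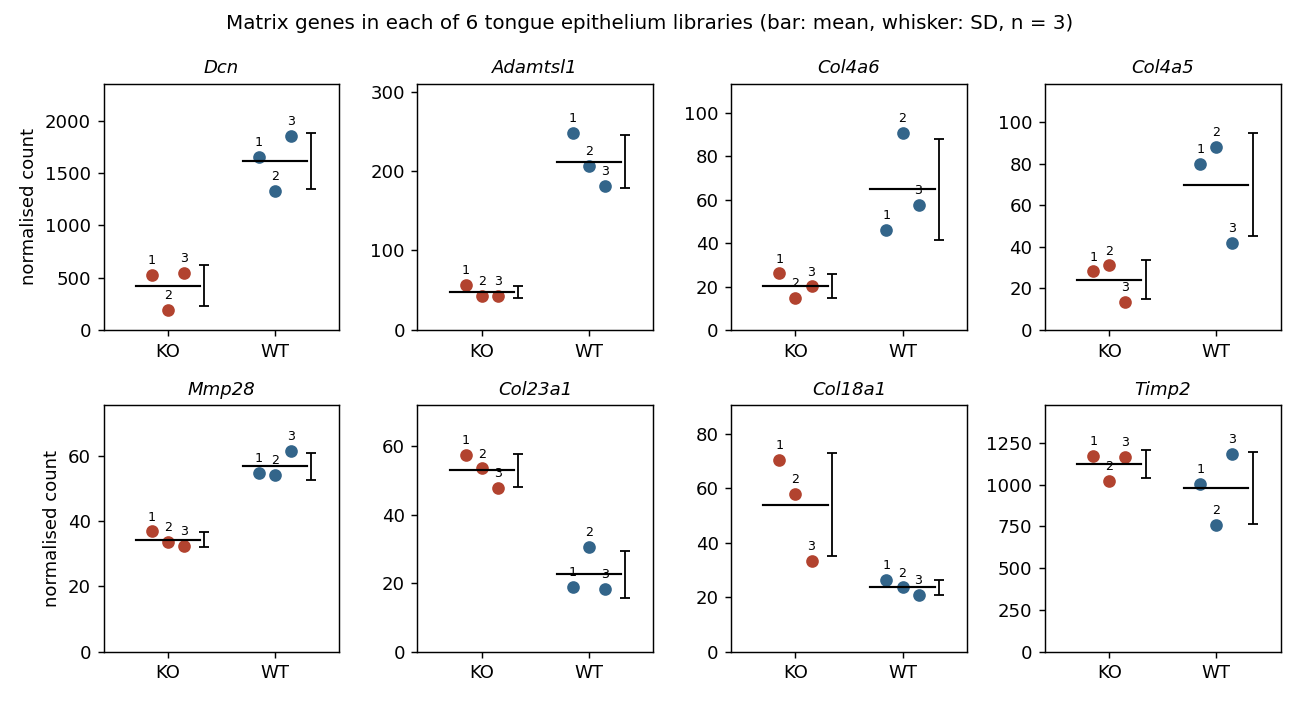
Normalised counts of 8 matrix genes in each library (dots, numbered by replicate), KO left and WT right, with the mean (line) and SD (whisker, n = 3). For Dcn, Adamtsl1, Col4a6, Col4a5 and Mmp28 all KO libraries lie below all WT libraries, for Col23a1 and Col18a1 they lie above, and Timp2 overlaps.

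Among the other network collagens, Col18a1, whose protein is a basement membrane collagen and the precursor of endostatin, had 70.4, 57.7 and 33.4 in KO replicates 1 to 3, against 26.4, 23.6 and 20.9 in WT replicates 1 to 3. The groups did not overlap, and KO replicate 3 lay nearest to WT. Its log2 fold change was 1.10 ± 0.31 (SE) and it did not pass (limma adjusted p = 0.127). It was 0.87 without KO replicate 1. Slc19a1 overlaps its 3′ end on the opposite strand, with 39.0, 10.3 and 32.4 in KO and 4.71, 27.1 and 22.2 in WT, and without a stated strand setting reads of the overlap cannot be told apart. The summed level of the 8 endothelial markers, most of it from Flt1 and Pecam1, was also above WT in every KO library, at 128.9, 93.9 and 69.6 in KO and 45.2, 50.6 and 37.9 in WT. Flt1, Pecam1 and Tie1 did not overlap between the groups, while Cdh5, Kdr, Emcn, Tek and Egfl7 did. Of the 2 endothelial markers that passed the filter, limma, edgeR and DESeq2 called 0 (2 at an unadjusted limma p under 0.05). The part of the endothelial markers in the Col18a1 values was not tested. Col8a1, a short-chain network collagen, had 263, 144 and 173 in KO and 140.4, 134 and 146 in WT, so that KO replicate 1 was the highest library and KO replicate 2 lay within the WT range (log2 fold change 0.42 ± 0.23 (SE), limma adjusted p = 0.479).

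Col23a1, a transmembrane collagen with a shed ectodomain, had 57.4, 53.4 and 47.6 in KO replicates 1 to 3, against 18.8, 30.5 and 18.3 in WT replicates 1 to 3. All KO libraries lay above all WT libraries. The means were 52.8 ± 4.91 in KO and 22.6 ± 6.92 in WT (SD, n = 3 each). The log2 fold change of 1.23 ± 0.28 (SE) missed the threshold with limma (adjusted p = 0.0629), edgeR (adjusted p = 0.0759) or DESeq2 (adjusted p = 0.0520). The other transmembrane collagens among the 100, Col13a1 and Col25a1, did not exceed 2.59 in any library. Col17a1, the hemidesmosomal collagen left out by the rule, had 559 to 1406 in KO and 461 to 658 in WT.

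Of the 24 genes that passed the filter other than Dcn and Adamtsl1, 1 was called lower with limma, Col4a6, and 0 were called higher. Over all tested genes 0.583% were called lower and 1.22% higher, 1.80% in all. At an unadjusted p under 0.05, which 13.5% of all tested genes had, the 24 held 5 genes, which were Col4a6, Col4a5, Mmp28, Col18a1 and Col23a1. edgeR called 1 lower and 0 higher, and DESeq2 called 2 lower, both type IV genes, and 0 higher, against 1.73% and 3.35% of all genes called in either direction. The groups did not overlap in 3 of the 24 with KO lower and in 2 with KO higher, where over all tested genes the shares were 9.25% and 9.84%. The median log2 fold change of the 24 was 0.12, and of all tested genes -0.01. The authors' deposited table of called genes lists 4 of the 100, with log2 fold changes of -2.17 for Adamtsl1, -1.93 for Dcn, -1.70 for Col4a6 and -1.54 for Col4a5. It comes from the same libraries, so it is no independent result, and Adamtsl1 and Dcn had led to the set. The share of all genes that it lists was not worked out here.

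**Figure D2:**
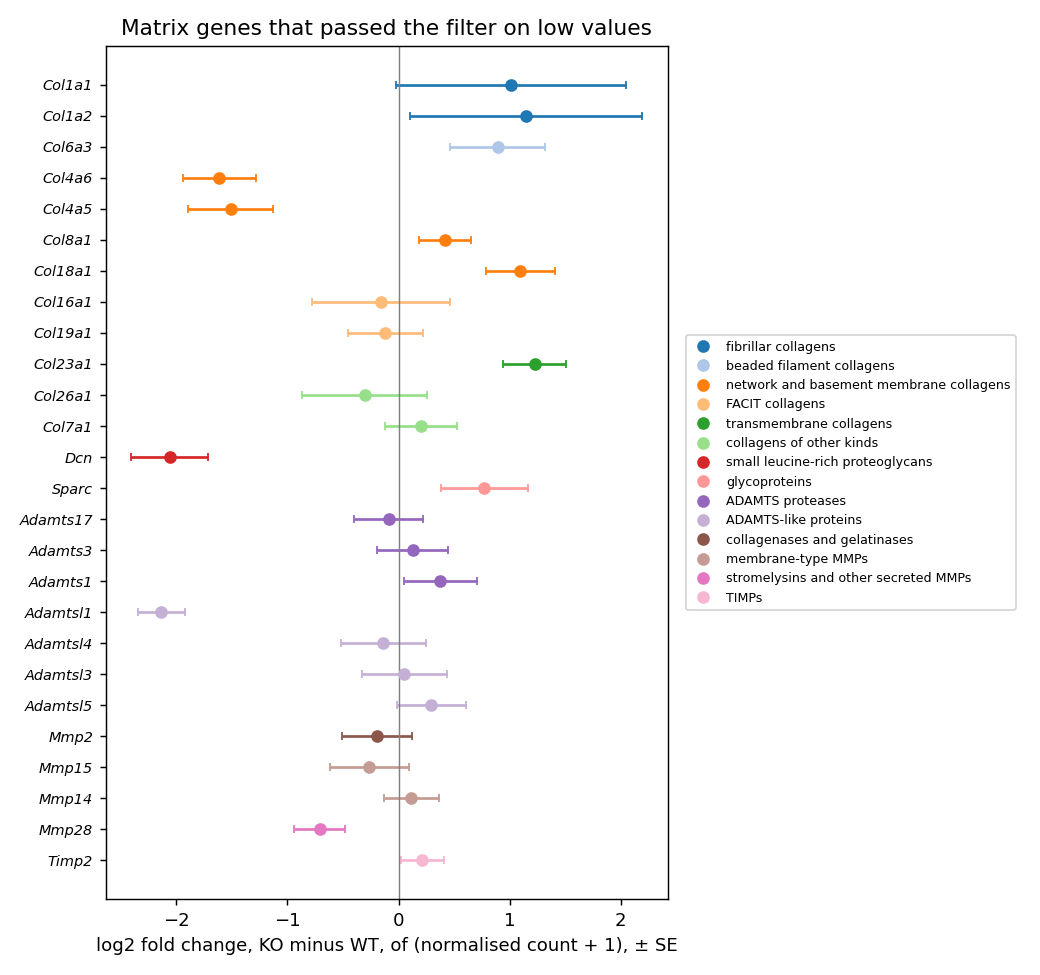
Log2 fold change (KO minus WT, dots) and SE (whiskers) of the 26 genes that passed the filter, ordered by role. Dcn and Adamtsl1, which led to the set being proposed, have the lowest values at -2.06 and -2.13, then Col4a6 at -1.61 and Col4a5 at -1.51, and Col1a1 and Col1a2 have the widest errors.

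Dcn encodes decorin, a small leucine-rich proteoglycan that binds collagen fibrils and growth factors (ENSMUSG00000019929, chromosome 10, 97479609 to 97518143, plus strand, GRCm38 in GENCODE M21). It had 529.8, 195 and 544 in KO replicates 1 to 3, against 1658, 1329 and 1856 in WT replicates 1 to 3. KO replicate 2 was the lowest library, and the highest KO library was below the lowest WT library. The log2 fold change was -2.06 ± 0.35 (SE), and -1.57 without KO replicate 2. Among libraries whose names carry digits, the difference between KO replicate 1 and WT replicates 1 and 2 was -1.48. Among those named by a letter, the difference between KO replicates 2 and 3 and WT replicate 3 was -2.51. Both parts come from the libraries by whose values Dcn was chosen, so they are a description only.

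Of the reads of the 100 genes, which are not all matrix genes of this tissue, Dcn took 12.2% (95% Wilson interval 11.2% to 13.3%), 8.05% (7.10% to 9.11%) and 18.5% (17.2% to 19.9%) in KO replicates 1 to 3. In WT replicates 1 to 3 it took 40.3% (38.8% to 41.7%), 36.1% (34.6% to 37.5%) and 41.7% (40.1% to 43.4%). The intervals cover counting error only and not the spread between mice. Dcn was chosen by its values in these libraries, so the shares are a description and not a test of KO against WT. Timp2 took 27.1%, 42.3% and 39.7% in KO replicates 1 to 3 and 24.4%, 20.5% and 26.6% in WT replicates 1 to 3, so in each KO library Timp2 had more reads than Dcn and in each WT library fewer. The total behind these shares includes Dcn, so a fall of Dcn raises the share of Timp2. The normalised counts of Timp2 overlapped between the groups. Outside the 100, the glycoprotein gene Ecm1 alone had 3904 to 4551 normalised counts in KO and 3876 to 5353 in WT.

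The other small leucine-rich proteoglycans were almost undetected beside it. Lum (lumican), Bgn (biglycan), Prelp, Fmod (fibromodulin) and Ogn (osteoglycin), all of which bind collagen or are found with it, summed to 36.8, 4.31 and 0.953 in KO replicates 1 to 3 and to 5.65, 4.36 and 2.61 in WT replicates 1 to 3. Lum was at 0 in all WT libraries and had 9.75, 0.862 and 0 in KO replicates 1 to 3. Fmod and Ogn were at 0 in all 6 libraries. Decorin and these genes did not have the same pattern over the libraries: KO replicate 1 was highest for Bgn at 27.1, against 0.953 to 4.36 in the other 5, while Dcn there was below every WT library.

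The genes outside the 100 whose log2 values were most like Dcn over the 6 libraries were Selenbp1, a selenium-binding protein (Pearson r = 0.998), Nbl1, a secreted BMP antagonist (0.994), Pdlim3, a PDZ and LIM domain protein (0.991), Tmem45a2 (0.991) and Lrrc56 (0.991). These are descriptions over 6 points in 2 groups, picked as the highest of all tested genes. Selenbp1 had 275, 113 and 258 in KO replicates 1 to 3, against 624, 517 and 752 in WT replicates 1 to 3. KO replicate 2 was the lowest library for each of the 5, as it was for Dcn.

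**Figure D3:**
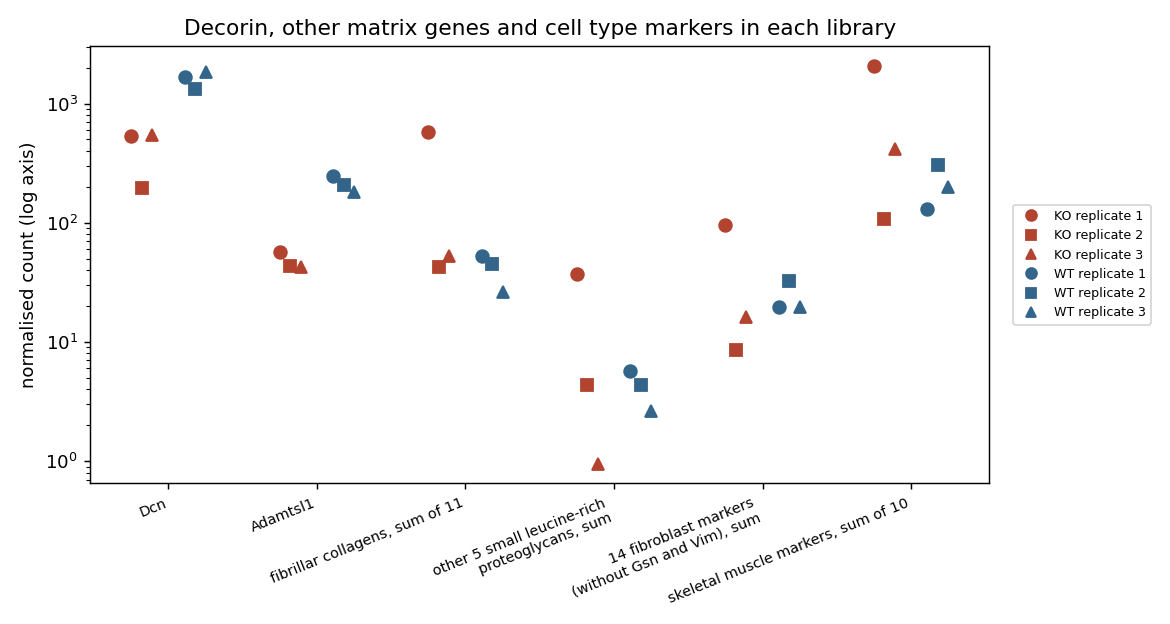
Normalised counts per library on a log axis for Dcn, Adamtsl1, the summed fibrillar collagens, the summed other small leucine-rich proteoglycans, 14 fibroblast markers and 10 skeletal muscle markers, with KO left of WT in each column. KO replicate 1 is highest for the last 4 sums, while for Dcn and Adamtsl1 all 3 KO libraries lie below all 3 WT libraries.

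Adamtsl1 (also called punctin) encodes a secreted ADAMTS-like protein, which resembles the ADAMTS proteases but lacks their catalytic domain (ENSMUSG00000066113, chromosome 4, 85514172 to 86428385, plus strand). It had 56.3, 43.1 and 42.9 in KO replicates 1 to 3, against 248, 206 and 182 in WT replicates 1 to 3. The libraries of each group lay close together and the groups were far apart. The log2 fold change was -2.13 ± 0.21 (SE), -1.98 among libraries named with digits and -2.05 among those named by a letter. Both parts come from the libraries whose values led to the set, so they are not an independent repeat of the difference. Sh3gl2, which overlaps the start of the gene on the same strand, had 172, 157 and 118 in KO and 140.4, 123 and 154 in WT.

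Among the other ADAMTS-like genes the KO and WT libraries overlapped. Adamtsl4, which binds fibrillin microfibrils, had 22.8, 36.2 and 14.3 in KO and 34.9, 21.8 and 20.9 in WT. Adamtsl5 had 43.3, 25.0 and 37.2 in KO and 23.6, 36.6 and 24.8 in WT, and Adamtsl3 stayed between 10.4 and 18.1 in all 6. Their log2 fold changes were -0.14, 0.29 and 0.05, each with an SE of 0.31 to 0.38 (limma adjusted p from 0.752 to 0.973). Adamtsl2 was at 0 in all 6 libraries.

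Of the 19 ADAMTS proteases 3 passed the filter and 0 were called by limma, edgeR or DESeq2 (unadjusted p under 0.05 in limma: 0). Adamts17 had 31.4, 68.1 and 58.1 in KO and 65.0, 45.4 and 50.9 in WT. Adamts1, which cleaves the proteoglycans aggrecan and versican, had 41.2, 21.5 and 24.8 in KO and 18.8, 20.9 and 24.8 in WT. Adamts3, a procollagen N-propeptidase, lay between 16.0 and 23.8 in all libraries. KO replicate 1 was the lowest library for Adamts17 and the highest for Adamts1. The other 16 had means of at most 6.73 over the 6 libraries, and Adamts7 was at 0 in all.

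Mmp28 (epilysin), an MMP made by keratinocytes, had 36.8, 33.6 and 32.4 in KO replicates 1 to 3, against 54.7, 54.1 and 61.4 in WT replicates 1 to 3. The libraries of each group were close together and did not overlap. The log2 fold change was -0.71 ± 0.23 (SE) and did not pass (limma adjusted p = 0.176, edgeR adjusted p = 0.181, DESeq2 adjusted p = 0.347). The antisense neighbour 1700020L24Rik overlaps its 3′ end and had at most 17.0, and with no stated strand setting reads of the overlap cannot be told apart.

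The proteases that act on collagen had overlapping groups. Mmp14, a membrane-type MMP that cleaves fibrillar collagen and activates Mmp2, had 345, 185 and 197 in KO and 188, 256 and 206 in WT. Mmp2, a gelatinase, had 169, 62.9 and 105 in KO and 106, 133 and 119 in WT. KO replicate 1 was the highest library for both, and for Mmp2 the other KO libraries lay below all WT libraries. Mmp15 had 34.7, 26.7 and 25.7 in KO and 32.0, 58.5 and 22.2 in WT. The log2 fold changes were 0.12, -0.19 and -0.26 (limma adjusted p = 0.895, 0.849 and 0.817), and for Mmp2 -0.54 without KO replicate 1 (limma adjusted p = 0.561). The collagenases Mmp8 and Mmp13 and the gelatinase Mmp9 did not exceed 1.75, and the stromelysins Mmp3 and Mmp10 and the metalloelastase Mmp12 did not exceed 1.75 either. Mmp7, Mmp19 and Mmp20 were at 0 in all libraries.

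Timp2, which inhibits MMPs and takes part in the activation of Mmp2 by Mmp14, had 1173, 1025 and 1168 in KO and 1006, 757 and 1185 in WT. The groups overlapped (log2 fold change 0.21 ± 0.20 (SE), limma adjusted p = 0.705). Timp1 and Timp3 were listed at 0 in all 6 libraries.

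The fibrous collagens were low in 5 of the 6 libraries and high in KO replicate 1, with a sum over all 11 fibrillar genes of 579.6, 42.2 and 52.4 in KO replicates 1 to 3 and 52.8, 45.4 and 26.1 in WT replicates 1 to 3. Col1a1, a chain of type I collagen, had 189.6, 3.45 and 14.3 in KO replicates 1 to 3 and 9.42, 12.2 and 10.4 in WT replicates 1 to 3. Col1a2, the partner chain, had 235, 10.3 and 7.62 in KO and 21.7, 14.0 and 5.22 in WT. Col3a1, the chain of type III collagen, had 102, 3.45 and 7.62 in KO and 7.54, 6.11 and 5.22 in WT, and did not pass the filter. For these 3 genes KO replicate 1 was alone, and the other KO libraries lay in or near the WT range. Col5a1, a chain of the minor fibrillar collagen V, differed from them, with 24.9, 5.17 and 12.4 in KO and 5.65, 3.49 and 1.31 in WT: KO replicate 3 was also above WT, the mean of KO replicates 2 and 3 was 2.52 times the WT mean, and the gene did not pass the filter. Col1a1 and Col1a2 had log2 fold changes of 1.01 and 1.15, each ± 1.04 (SE; limma adjusted p = 0.742 and 0.702), which turned to -0.50 and -0.38 without KO replicate 1. DESeq2 gave Col1a2 no adjusted p.

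KO replicate 1 was also the highest library for Sparc, Fn1 and Col16a1. Sparc, a collagen-binding glycoprotein, had 338, 99.97 and 111 in KO and 102, 82.0 and 88.8 in WT, and its log2 fold change of 0.77 ± 0.39 (SE, limma adjusted p = 0.433) was 0.21 without KO replicate 1. Fn1 (fibronectin) had 26.0, 3.45 and 3.81 in KO and 2.83, 7.85 and 2.61 in WT. Col16a1, a FACIT collagen (a collagen that binds to the surface of fibrils), had 74.8, 9.48 and 13.3 in KO and 19.8, 27.1 and 26.1 in WT. Without KO replicate 1, in which it was highest, its log2 fold change was -1.03 (limma adjusted p = 0.362), against -0.16 with all libraries. Col6a3, a chain of the beaded filament collagen VI, had 32.5, 34.5 and 17.2 in KO and 20.7, 16.6 and 7.84 in WT, and was highest in KO replicate 2 (log2 fold change 0.89 ± 0.43 (SE), limma adjusted p = 0.401).

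KO replicate 1 was the highest library for 38 of the 89 genes with a read, which is 42.7%, and for 20.8% of all 21778 genes with a read. Of the markers with a read, 8 of 8 for skeletal muscle and 10 of 14 for fibroblasts were also highest there, Vim, Thy1, Serpinf1 and Pdgfrb being the exceptions, and their part in the matrix values of that library was not tested. For Dcn, Adamtsl1, Col4a5 and Col4a6 the fold changes without KO replicate 1 were -2.29, -2.26, -1.66 and -1.80, and Col4a6 then had a limma adjusted p of 0.0593. Dcn and Adamtsl1 were chosen by their values in these libraries, so their fold changes here are a description only.

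**Figure D4:**
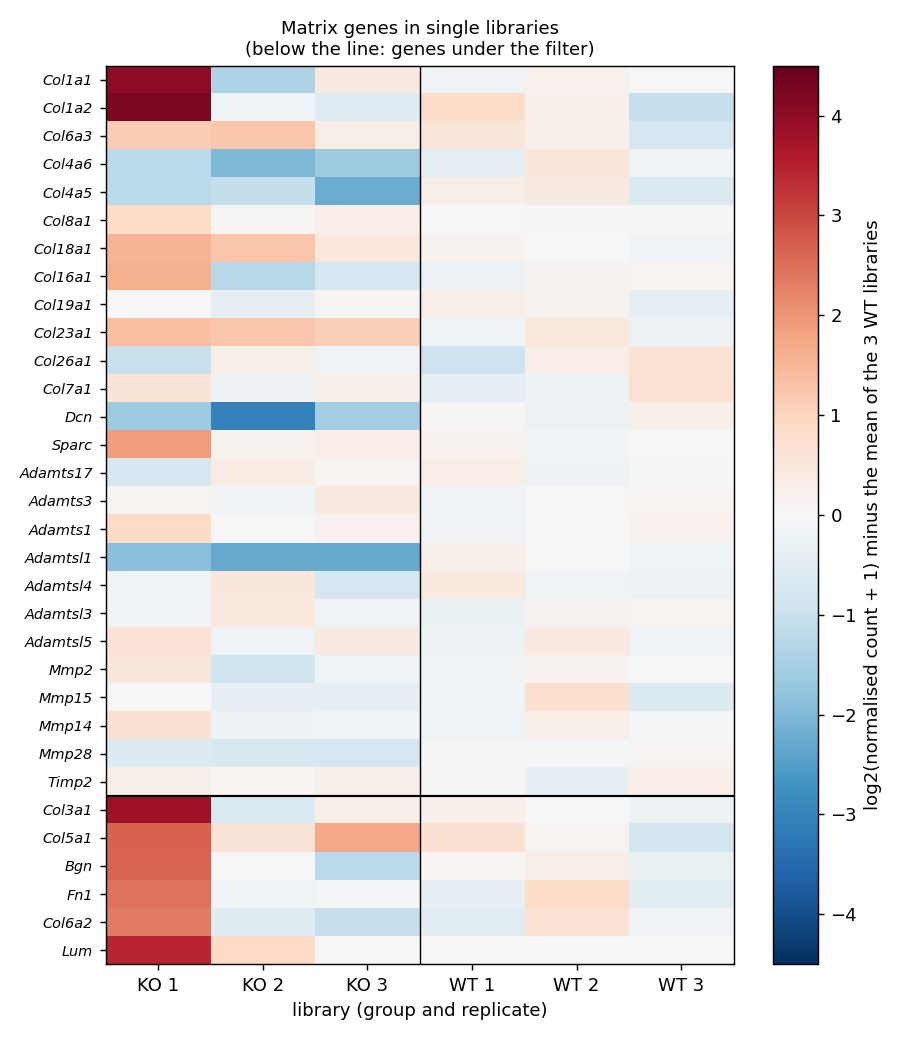
Log2(normalised count + 1) minus the mean of the 3 WT libraries (colour, blue below and red above) for the 26 genes that passed the filter and 6 connective tissue genes under it, in KO (left) and WT (right) libraries. KO replicate 1 is red for the type I and III collagens, Sparc, Bgn and Fn1, while Dcn, Adamtsl1, Col4a5, Col4a6 and Mmp28 are blue in all 3 KO libraries.

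The remaining collagens had overlapping groups or few reads. Col7a1, the anchoring fibril collagen that fastens the basement membrane to the tissue below, had 93.2, 51.7 and 74.3 in KO and 45.2, 52.4 and 97.9 in WT (log2 fold change 0.21 ± 0.32 (SE), limma adjusted p = 0.846). WT replicate 3 was the highest library and WT replicate 1 the lowest. The FACIT collagen Col19a1 lay between 14.4 and 23.6 in all libraries, and Col26a1 between 4.33 and 15.7 (limma adjusted p = 0.926 and 0.874). The fibrillar genes Col2a1, Col5a2, Col5a3, Col11a1, Col11a2, Col24a1 and Col27a1 did not exceed 8.67 in any library, and Col10a1, a cartilage collagen, was at 0 in all.

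Matrix genes outside the 100 were taken from 7 lists, in which 4 of 79 tested genes were called with limma, against 1.80% of all tested genes. In the list of collagen synthesis and crosslinking 1 of 13 tested genes rose and 0 fell (median log2 fold change 0.04, against -0.01 over all genes). This was Plod2, which hydroxylates lysines of collagen telopeptides, with 74.8, 67.2 and 58.1 in KO and 17.9, 26.2 and 10.4 in WT (log2 fold change 1.90 ± 0.33 (SE), limma adjusted p = 0.0175). Its call was lost when any 1 KO replicate was left out (limma adjusted p from 0.0554 to 0.0835). P3h2, which hydroxylates prolines of type IV collagen, had 58.5, 79.3 and 61.9 in KO and 127, 122 and 112 in WT and did not pass (log2 fold change -0.86, limma adjusted p = 0.0725).

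In the elastic fibre list 1 of 7 tested genes fell and 0 rose (median -0.47). Eln, which encodes tropoelastin, had 16.3, 7.76 and 14.3 in KO and 45.2, 38.4 and 41.8 in WT, with no overlap (log2 fold change -1.69 ± 0.34 (SE), limma adjusted p = 0.0348). Its call was lost whichever library was left out (limma adjusted p from 0.0552 to 0.115) and with the name style as a covariate (limma adjusted p = 0.101). Ltbp1, a latent TGF-beta binding protein, had a log2 fold change of -0.68 (limma adjusted p = 0.201). In the list of laminins and other basement membrane genes 1 of 16 fell and 0 rose (median 0.00). This was Frem2, an extracellular matrix protein that anchors epithelium to the tissue below, with 20.6, 15.5 and 20.0 in KO and 108, 82.0 and 62.7 in WT (limma adjusted p = 0.00489), which passed whichever library was left out. Hmcn1 (hemicentin) had 6.50, 0.862 and 7.62 in KO and 17.9, 35.8 and 28.7 in WT and did not pass (limma adjusted p = 0.0811). Fras1, which works with Frem2 below the basement membrane, had 23.8, 20.7 and 19.1 in KO and 53.7, 36.6 and 45.7 in WT and did not pass either (limma adjusted p = 0.0944).

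In the list of other matrix proteases and inhibitors 1 of 13 rose and 0 fell (median -0.08). Serpine2, an inhibitor of serine proteases, had 415, 219.8 and 283 in KO and 37.7, 74.2 and 146 in WT (log2 fold change 1.98 ± 0.41 (SE), limma adjusted p = 0.0420). It passed without KO replicate 2 or WT replicate 3 only of the fits that leave out 1 library (limma adjusted p up to 0.162 in the others), and not with edgeR (adjusted p = 0.0513) or with the name style as a covariate (limma adjusted p = 0.139). Hpse, which cuts heparan sulfate, had a log2 fold change of -0.64 (limma adjusted p = 0.109). The lists of other matrix glycoproteins, of collagen receptors and integrins and of TGF-beta readouts held 7, 13 and 11 tested genes and 0 called with limma, edgeR or DESeq2 (3, 2 and 2 at an unadjusted p under 0.05; medians 0.15, 0.23 and 0.01). Smoc2, a matricellular protein, had 13.0, 3.45 and 5.72 in KO and 20.7, 22.7 and 15.7 in WT (limma adjusted p = 0.199), and Tnc (tenascin C) had 82.3, 39.6 and 30.5 in KO and 5.65, 34.9 and 14.4 in WT (limma adjusted p = 0.221). Itga3, an integrin subunit that binds laminin, had 161, 126 and 154 in KO and 59.4, 103 and 87.5 in WT (limma adjusted p = 0.123), and Itga2, an integrin subunit that binds collagen, had 28.2, 17.2 and 30.5 in KO and 49.9, 64.6 and 35.3 in WT (limma adjusted p = 0.201). Tgfbr2, a TGF-beta receptor, had a log2 fold change of 0.90 (limma adjusted p = 0.146).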

How the data were processed

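The authors deposited normalised counts, a signal on a linear scale with 1 column per library. The authors' table of called genes holds a log2 fold change with its SE, a score (the test statistic) and p-values with their adjusted forms, as its header names them. The submitters' processing notes name FastQC, STAR, featureCounts and DESeq2. For build, annotation and strand setting, the sources used here name none. All deposited values (100% to within 0.01 of a whole read) were whole multiples of 1 step per library, 0.862 to 1.31, so whole reads were recovered. The 3192 rows without a symbol name genes by identifier and were kept. Of the value columns, 0 were left unmatched.

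KO and WT were compared with limma 3.58.1 (R 4.3.3) on log2(value + 1) with an intensity trend, two-sided, over the genes that reached 10 in 3 or more libraries. A pseudocount of 1 understates the change of low genes. edgeR 4.0.16 and DESeq2 1.42.0 on recovered reads were alternatives, beside pseudocounts of 0.5 and 5, no filter, a filter at 50, TMM factors, a covariate for the style of the library name, a replicate block, and each library left out. The fit was tested on simulated counts with the same dispersion for every gene, large changes in abundant genes only and no library set apart. That test does not check the calls of low genes or the effect of KO replicate 1. The members and lists were chosen with earlier results of these data known. Named genes are Dcn and Adamtsl1, called members, the most abundant and lowest-p members of each role, 2 genes per other list and the 5 most like Dcn. A few others were named after their values were seen. Each library came from 1 mouse. Coordinates are from GENCODE M21 by Ensembl ID (100 of 100 matched) and promoters from RefSeq.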

Additional observations from a re-analysis of the deposited data

How the results depend on the processing

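Of the matrix genes other than Dcn and Adamtsl1, 1 was called in the fit as reported. The count was 2 with DESeq2, and 0 with a filter at 50, under which 8 of the 24 genes were tested and Col4a6 was not, and with the style of the library name as a covariate. It was 0 to 1 when 1 library was left out, 0 without any 1 of the KO replicates or WT replicate 2, and the gene called without WT replicate 3 was Col4a5. Over all genes 198 were called, 368 with DESeq2, 82 with the name style as a covariate and 68 to 186 when 1 library was left out, with 68 without KO replicate 3, 75 without KO replicate 1, 80 without WT replicate 2 and 112 without KO replicate 2. Other pseudocounts, no filter, TMM factors and edgeR left the matrix count at 1. Same-numbered libraries had correlations of deviations of -0.25, 0.03 and 0.28. With 3 libraries per group these values cannot decide whether the numbers are a pairing, and the labels state none. With the replicate block the matrix count was 1, but the gene was Col4a5 (limma adjusted p = 0.0280) and not Col4a6 (0.0747), and 178 genes were called in all. With the name style as a covariate Col4a6 had a limma adjusted p of 0.104, and the cause was not tested. The name style is partly aligned with genotype, and the labels do not say what it is. Most matrix genes had too few reads for a test.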
